A study of Mus musculus with 9 samples.

Results

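A set of 9 genes of the fibroblast growth factor (FGF) and ERK signalling route was followed through the listed chromatin contacts of mouse embryonic stem (mES) cells: the ligand gene Fgf4, the receptor gene Fgfr1, the feedback inhibitor genes Spry2, Spry4, Spred1 and Dusp6, and the transcription factor genes Etv4, Etv5 and Egr1. A contact pair was taken when either of its bins overlapped a member's gene body (GENCODE M21, mm10) widened by 5 kb on each side. The rule found 150 of 36274 H3K27ac pairs in cells without IAA, 94 of 28210 H3K27ac pairs after IAA, 47 of 49630 CTCF pairs and 29 of 23630 RAD21 pairs. The measurement was MNase HiChIP, in which crosslinked chromatin is cut with micrococcal nuclease, nearby ends are ligated and an antibody enriches the fragments, so that a pair reports closeness of 2 bins in chromatin that carries the antibody's target. H3K27ac is the acetylated histone found at enhancers and promoters in use, RAD21 is a subunit of cohesin, and CTCF is the DNA-binding protein at which cohesin stalls.

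All 9 samples were E14 mES cells of the genotype CTCF AID, in which the degron tag lets the auxin IAA start degradation of CTCF. H3K27ac was measured in 2 samples without IAA and in 2 after 12 h of IAA, and 2 samples held CTCF and 3 held RAD21, all without IAA. CTCF and RAD21 lists after IAA were not analysed here, and no list measures how far CTCF was removed. Every group, untreated cells included, grew in serum-free medium with LIF, CHIR99021 and PD0325901. PD0325901 inhibits MEK, the kinase that activates ERK, so the members were measured with an inhibitor of that pathway present in all groups. No list measures ERK activity. The labels do not say how many clones or separate cultures the samples stand for.

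In embryonic stem cells FGF4 is the main FGF made by the cells themselves. It binds FGF receptors such as FGFR1, which activate Ras, Raf, MEK and ERK, and ERK activity prepares the cells to leave the naive state. ERK also switches on its own brakes: Sprouty and Spred proteins dampen the route between receptor and Raf, the phosphatase DUSP6 removes the activating phosphates from ERK, and ETV4, ETV5 and EGR1 are transcription factors whose genes respond quickly to the pathway.

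The replicates of a group were merged before the contacts were listed, so replicate spread is unknown for every value given here. A pair missing from a list was not called there at that depth, which is not the same as no contact. The authors' models covered 12551236 contacts for H3K27ac without IAA, 14629323 after IAA, 2839756 for CTCF and 1517698 for RAD21, with bins of 2 kb for H3K27ac and 1 kb for CTCF and RAD21. The cells carried H3K27ac pairs at 8 of 8 naive stem cell marker genes, with 18 to 121 pairs a gene without IAA, against 1 of 4 primed epiblast, 1 of 4 endoderm, 2 of 4 mesoderm, 2 of 4 neural, 2 of 3 trophoblast and 1 of 4 fibroblast markers. Bulk contacts cannot tell fewer cells with a contact from a weaker contact in each cell.

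Some sequences are shown first because the results on Fgf4, Fgfr1, Spred1 and Etv5 come back to them. The first is the site in the last exon of Fgf4 where, by textbook knowledge, SOX2 and OCT4 bind side by side on the Fgf4 enhancer. Capitals mark the SOX core CTTTGTT and the octamer ATGCTAAT, with 3 bases between them, on the plus strand of chr7:144864394-144864411 (mm10):
Fgf4 exon site: aaaactCTTTGTTtggATGCTAATgggata
It lies in the 2 kb bin that starts at 144864001, which is named the exon enhancer bin here. A search of both strands for the same 2 words in that order, at most 10 bases apart, found them in 8 of 27304 bins that anchor an untreated H3K27ac pair, or 0.0293%.

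The second kind is the CTCF core motif, shown with capitals for the 14 matched positions and read along the strand of the match; up to 1 mismatch was allowed on either strand. Each set comes from the bins of 1 listed CTCF pair, and in each the motifs face each other. At Fgfr1 and Spred1 the far bin of the most contacted pair held no match, so the match of a neighbouring far anchor is shown.
Fgf4 upstream, plus strand, chr7:144846358-144846371: actcccttCCAGCAGGTGGCAGtggtctcg
Fgf4 downstream, minus strand, chr7:144887509-144887522: ttgcaaccCCACCACGGGGCAGcatgacct
Fgfr1 distal, plus strand, chr8:25277319-25277332: aaggctttCCAACAGGTGGCGCtctagcag
Fgfr1 last exon, minus strand, chr8:25575291-25575304: caaagcaaCCAGCAGGTGGCAGaattgagt
Spred1 distal, plus strand, chr2:116897047-116897060: cttcatgaACAGCAGAGGGCACtgttcctc
Spred1 last exon, minus strand, chr2:117180701-117180714: aaagccatCCAGCAGGTGGCACtgcagctc
Etv5 intron, plus strand, chr16:22429224-22429237: attcagacGCAGTAGGGGGCGCtggctggg
Etv5 distal in Dgkg, minus strand, chr16:22548231-22548244: tctcctggACAGCAGAGGGCAGcagtgagg
The core was found in 25 of the 53 bins that anchor the members' CTCF pairs (47.2%, against 41.7% of all CTCF anchor bins) and in 15 of the 36 that anchor their RAD21 pairs (41.7% against 46.7%). Among the 24 CTCF anchor bins that lie inside the windows themselves, 4 held it.

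The members fell into 2 very unequal classes. Etv5 had 77 H3K27ac pairs without IAA and Fgf4 had 56, together 133 of the 150, while the other 7 genes had 0 to 5. Only 30 of the 21924 protein-coding genes had more untreated pairs than Etv5, and 60 had more than Fgf4. H3K27ac pairs were listed without IAA for 8 of the 9 members and after IAA for 5, where 41.9% and 38.3% of all protein-coding genes had one. CTCF pairs were listed for 7 members and RAD21 pairs for 6, against 53.9% and 41.9% of protein-coding genes. Spry4 had no H3K27ac pair in either list, and neither Spry2 nor Dusp6 had a CTCF or RAD21 pair.

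**Figure D1:**
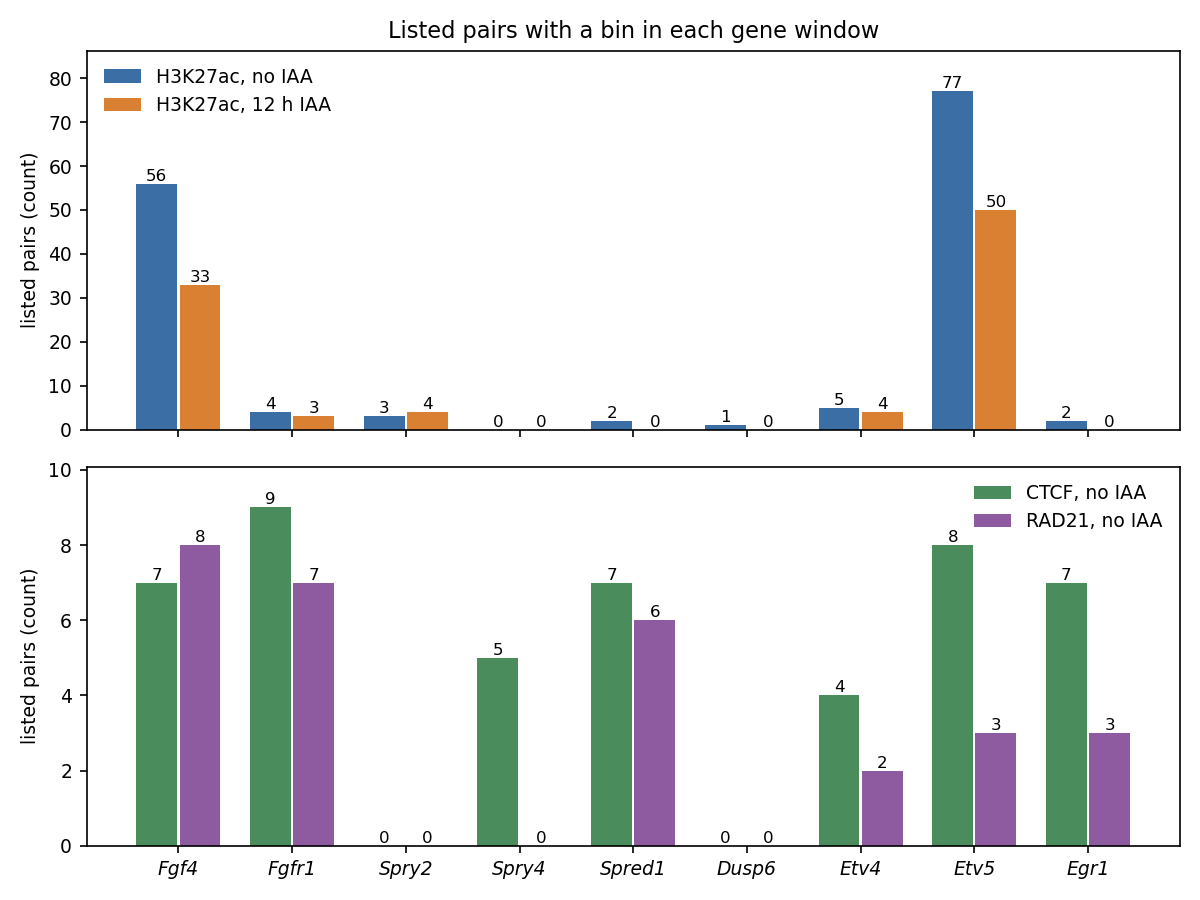
Number of listed pairs (vertical axis, count) with a bin in the window of each gene, in the H3K27ac lists without IAA and after 12 h of IAA (upper panel) and in the CTCF and RAD21 lists without IAA (lower panel). Etv5 (77 and 50) and Fgf4 (56 and 33) hold most H3K27ac pairs, whereas CTCF pairs are spread over 7 genes with 4 to 9 each.

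After IAA the members together had 94 listed H3K27ac pairs, against 150 without it. Of the 150 untreated pairs, 56 were called again in exactly the same 2 bins (37.3%, exact binomial 95% interval 29.6% to 45.6%), against 42.9% of all untreated pairs. Of the 94 pairs listed after IAA, 59.6% were in the untreated list (49.0% to 69.6%), against 55.1% of all. Both shares of the whole lists fall inside the members' intervals, which cover counting error only and treat pairs that share a bin as independent. For the first share this depends on Etv5: without that gene the interval was 18.8% to 40.6%, below 42.9%. With each anchor free by 1 bin the order turned: 76.7% of untreated member pairs were found after IAA, against 65.7% of all pairs. In the same 2 bins the split by gene was uneven: 35 of 77 Etv5 pairs (45.5%, 34.1% to 57.2%) and 16 of 56 Fgf4 pairs (28.6%, 17.3% to 42.2%) were called again. None of the 5 pairs of Spred1, Dusp6 and Egr1 was.

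How many contacts a pair held went with whether it was called again. Of member pairs with 25 contacts or more, 27 of 36 were called again (75.0%, all pairs 82.9%). With 15 to 24 contacts it was 11 of 41 (26.8%, all pairs 55.3%), with 10 to 14 contacts 17 of 55 (30.9%, all pairs 30.9%), and with 6 to 9 contacts 1 of 18 (5.56%, all pairs 14.7%). In the class of 15 to 24 contacts, both large genes were under the share for all pairs: 4 of 18 at Fgf4 (22.2%) and 7 of 20 at Etv5 (35.0%). With 10 to 14 contacts Fgf4 was under it, with 4 of 25 (16.0%), and Etv5 over it, with 11 of 26 (42.3%). Long member pairs were rarely called in both lists: 1 of 19 spanning over 50 kb (5.26%), against 33.3% of all pairs of that span. These were also pairs of few contacts: 13 of the 19 held 6 to 9, of which 1 was called again (16.0% of all pairs of that span and count), and 5 held 10 to 14, of which 0 were (36.2%).

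The 56 pairs in both lists held 1523 contacts without IAA and 1394 after it. A pair must pass the calling in each list to be among them. The 94 member pairs listed only without IAA and the 38 listed only after it enter neither the ratio nor the test below. These values therefore do not stand for all member pairs. After scaling by the contacts of all shared pairs, the log2 ratio of IAA to untreated was -0.10, with an exact binomial interval of -0.20 to 0.01. Without Etv5, a choice made after the data were seen, it was -0.22 (-0.40 to -0.04). Of the 56 pairs 35 had a log2 ratio under 0 and 21 over it, where 46.2% of all shared pairs were under 0. At least 1.5-fold lower after IAA were 6 pairs and at least 1.5-fold higher 1, against 8.04% and 8.55% of all shared pairs. An exact two-sided binomial test on every shared pair, with Benjamini-Hochberg adjustment over all 15551, called 0 member pairs and 21 pairs in all (0.135%); at an unadjusted p under 0.05 it found 1 member pair and 686 pairs in all. This test compares 2 pooled libraries, not replicated conditions, and at these counts most 2-fold changes would not be called, as simulated counts of the same pairs showed.

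The size of the ratio over all shared member pairs followed the scaling. Scaled by the contacts in the authors' models it was -0.35 (-0.45 to -0.24), and that scaling moves every shared pair by -0.25. With contacts divided by the product of the 2 bins' coverage it was 0.03. The sum's direction was therefore set by the choice of scaling. The same held for Fgf4, whose value went from -0.14 to -0.39 and 0.03, and for Etv5, from -0.03 to -0.28 and 0.05. The genes with 1 or 2 shared pairs stayed under 0 in all 3 scalings: Fgfr1 at -0.39, -0.64 and -0.27, Spry2 at -0.27, -0.52 and -0.20, and Etv4 at -0.74, -0.99 and -0.03.

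**Figure D2:**
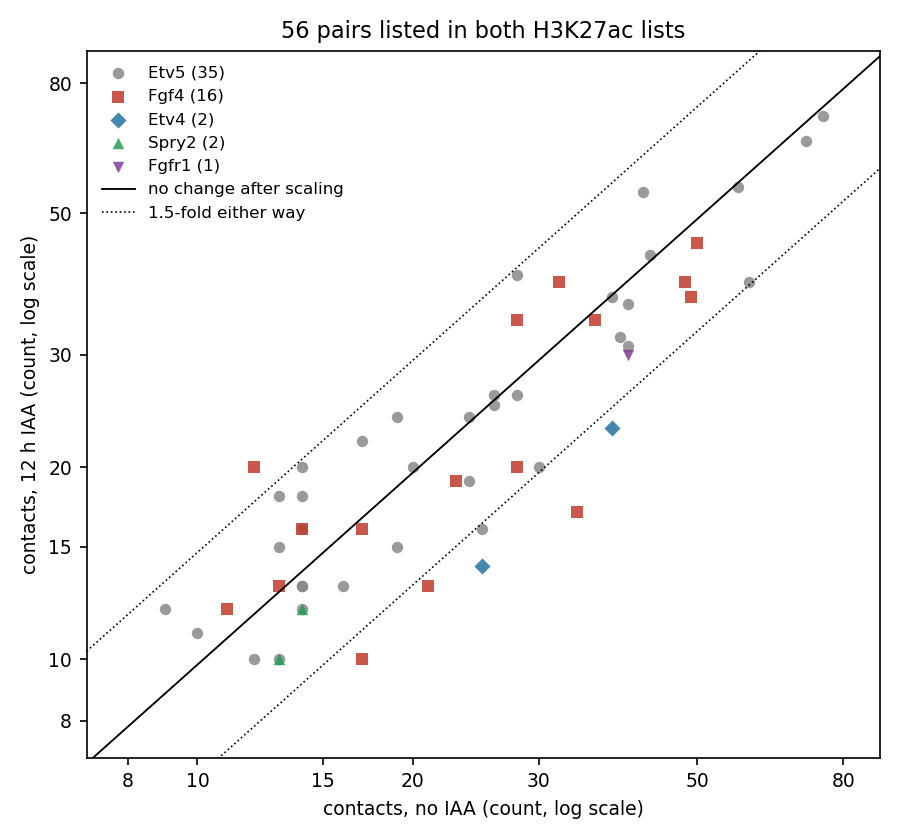
Contacts of the 56 member pairs listed in both H3K27ac lists, without IAA (horizontal, count, log scale) and after 12 h of IAA (vertical, count, log scale), 1 symbol a pair, by gene. The solid line marks no change after scaling to all shared pairs and the dotted lines 1.5-fold either way; 6 pairs lie below the lower dotted line and 1 above the upper, and both Etv4 pairs are among those below.

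Fgf4, the ligand gene (chr7:144847367-144865243, plus strand, coding start site at 144861386), sat in a dense cluster of short pairs. Its 56 untreated pairs held 1093 contacts and spanned 6 to 282 kb with a median of 16.0 kb, and 39 of them spanned 24 kb or less. Both bins lay inside the window in 21 pairs. The coding start site bin took part in 5 pairs without IAA and 5 after it, and the start site of the neighbouring ligand gene Fgf3 in 4 and 4. The strongest pair joined chr7:144856001-144858000 upstream of the start site with chr7:144862001-144864000 inside the gene by 56 contacts over 6 kb, where the authors' model predicted 17.1. This pair was not in the list after IAA, in which the weakest of 48 pairs of the same span, with bin coverage 0.8 to 1.25 times that of these bins, held 35 contacts.

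Many Fgf4 pairs met in a few bins. The exon enhancer bin with the SOX and octamer words had 12 pairs without IAA and 5 after it. All 5 of the latter were in both lists, with 178 contacts without IAA and 143 after, a log2 ratio of -0.29 (-0.61 to 0.04), and 4 of the 5 were lower. The second bin, chr7:144850001-144852000, lies 10.4 kb upstream of the coding start site and holds an anchor of CTCF pairs and of RAD21 pairs. That anchor, chr7:144851001-144852000, held no match of the CTCF core, and the Fgf4 upstream motif shown above lies in another bin. The second bin had 13 pairs without IAA and 7 after it. Its 6 pairs in both lists were all lower after IAA, with 171 contacts against 124, a log2 ratio of -0.43 (-0.78 to -0.09); this bin was picked after its values were seen. The 2 shared pairs of the start site bin held 55 and 58 contacts, a log2 ratio of 0.11 (-0.45 to 0.66). Its pair with the upstream bin, 23 contacts without IAA and 19 after it, is in the sums of both bins. Other bins that hold no CTCF pair anchor also had fewer pairs after IAA. Among them were chr7:144856001-144858000 with 13 and 5, chr7:144866001-144868000 with 10 and 4, chr7:144854001-144856000 with 7 and 2, and chr7:144862001-144864000 with 6 and 2. In the window the count was higher after IAA at chr7:144858001-144860000 (5 and 6), chr7:144852001-144854000 (0 and 2) and chr7:144842001-144844000 (0 and 1). The differences between the bins were not tested.

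The largest difference among shared Fgf4 pairs joined the upstream CTCF bin and the exon enhancer bin, so its contacts are part of both sums above. This pair, spanning 14 kb, held 34 contacts without IAA and 17 after it, a log2 ratio of -0.97 (-1.90 to -0.09). It was the 1 member pair with an unadjusted exact binomial p under 0.05 (p = 0.0245, adjusted p = 0.969), so it did not pass the test. The upstream bin's pair with chr7:144856001-144858000 held 48 and 39 contacts. The exon enhancer bin's other strong pairs, with chr7:144856001-144858000 and chr7:144858001-144860000, held 49 and 50 contacts without IAA and 37 and 45 after it. In the other direction the largest ratio was 0.77 (-0.34 to 1.93), from 12 to 20 contacts, for a pair of chr7:144858001-144860000 with an intergenic bin 36 kb upstream.

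Pairs leaving the Fgf4 window were counted by side, and the difference between the sides was not tested. Upstream of the gene, toward Fgf3, 17 pairs were listed without IAA and 16 after it, 6 of them the same. Downstream, toward Fgf15, 18 were listed without IAA and 7 after it, 2 of them the same. Of the downstream pairs, 9 reached bins that hold a CTCF pair anchor and none of these was called again in the same bins (42.9% of all untreated pairs were). After IAA 3 other pairs of that kind were listed. The 9 untreated pairs held 8 to 21 contacts, and the share of 42.9% takes no account of contacts. By contacts it was 14.7% of all untreated pairs with 6 to 9, 30.9% with 10 to 14 and 55.3% with 15 to 24. Within 1 bin at each end, 3 of the 9 untreated pairs had an IAA pair and 2 of the 3 IAA pairs an untreated one. By the same measure 13 of the 17 upstream and 8 of the 18 downstream untreated pairs had an IAA pair, against 65.7% of all untreated pairs. Upstream, 6 untreated pairs reached bins that hold a CTCF pair anchor. Of these 2 were called again in the same bins and 4 had an IAA pair within 1 bin. The bins chr7:144886001-144888000 and chr7:144888001-144890000, the first of which holds the downstream motif shown above, had 4 untreated pairs each, with 42 and 67 contacts, and 0 and 1 pair after IAA. A bin 282 kb downstream, chr7:145138001-145140000, met the Fgf4 region in both lists: once without IAA with 10 contacts, and in 2 other pairs after IAA with 9 contacts each.

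**Figure D3:**
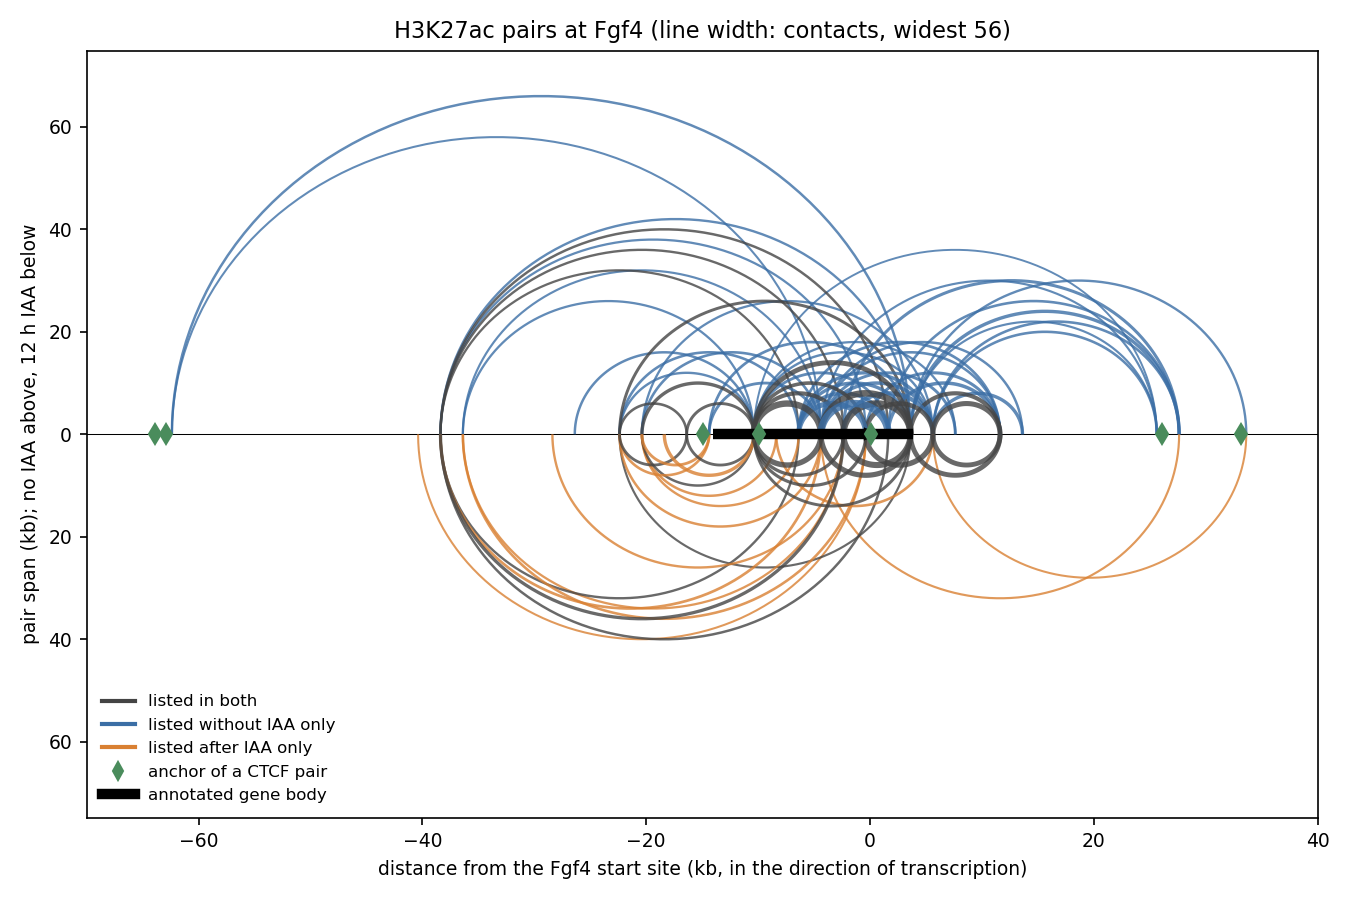
H3K27ac pairs at Fgf4 by distance from the coding start site (horizontal, kb) and span (vertical, kb), without IAA above the line and after 12 h of IAA below it, with line width by contacts; 55 of 56 and 30 of 33 pairs fall in the drawn range. Dark pairs are in both lists, and the untreated arcs that reach the CTCF anchors to the right of the gene have few counterparts below.

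CTCF and RAD21 pairs framed the same Fgf4 bins. Fgf4 had 7 CTCF pairs (10 to 34 contacts) and 8 RAD21 pairs (9 to 29 contacts), 3 of them in the same 1 kb bins of both lists. These counts depend on the annotated gene body, which begins well upstream of the coding start site: with a window around the coding transcript only, an alternative added after the data were seen, 1 CTCF pair and 2 RAD21 pairs were left, beside 46 untreated and 24 IAA H3K27ac pairs. The most contacted CTCF pair, with 34 contacts over 41 kb, joined the 2 Fgf4 motifs shown above, 19 contacts in RAD21. Both Fgf4 CTCF pairs that could be read for direction had motifs facing each other. The anchor at chr7:144851001-144852000, inside the upstream bin, met chr7:144790001-144791000 with 31 CTCF and 29 RAD21 contacts, chr7:144798001-144799000 with 33 and 12, and the Fgf4 start site bin with 20 CTCF contacts. The H3K27ac pair over this last bin pair held 23 contacts without IAA and 19 after it.

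Fgfr1, the gene of a receptor for FGF4 (chr8:25513654-25575718, plus strand), had few H3K27ac pairs and strong CTCF pairs. All 4 untreated H3K27ac pairs stayed inside the window, and 1 of them used a start site bin. The strongest, between intronic bins at chr8:25536001-25538000 and chr8:25542001-25544000, held 40 contacts without IAA and 30 after it, a log2 ratio of -0.39 (-1.12 to 0.33), and it was the 1 pair in both lists. After IAA a pair with the start site bin of Letm2, 52 kb away, was listed with 10 contacts.

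In the CTCF list 6 of the 9 Fgfr1 pairs ended in chr8:25575001-25576000, in the last exon, where the motif shown above lies on the minus strand. Their other ends were 214 to 311 kb upstream, beyond the start of the gene. The most contacted one spanned 300 kb with 48 CTCF contacts and 44 RAD21 contacts. All 4 Fgfr1 CTCF pairs with a single motif direction at each end had motifs facing each other, as did 3 of 3 in RAD21. Of its 7 RAD21 pairs, 4 were CTCF pairs in the same 1 kb bins.

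The Sprouty genes were opposites in these lists. Spry2 (chr14:105891947-105896819, minus strand), an inhibitor induced by ERK, had 3 H3K27ac pairs without IAA and 4 after it, and no CTCF or RAD21 pair. All 7 listings joined the Spry2 start site and its flanks to 2 adjacent bins, chr14:105858001-105860000 and chr14:105860001-105862000, 34 to 40 kb downstream in the noncoding or pseudogene locus Gm48970. The pairs in both lists held 14 and 13 contacts without IAA and 12 and 10 after it, a summed log2 ratio of -0.27 (-1.15 to 0.60). Neither distal bin holds an anchor of a CTCF pair. Over both lists a Spry2 pair held 9 to 14 contacts.

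Spry4 (chr18:38586247-38601415, minus strand) had no H3K27ac pair and 5 CTCF pairs, of 7 to 13 contacts, none of which was in the RAD21 list. Of these, 4 met at its start site bin. Their partners were the start site bins of Rnf14 and Gnpda1, 305 and 263 kb away with 10 and 9 contacts, a bin 21 kb away with 13 contacts, and a bin in an intron of Arhgap26, 329 kb away with 8 contacts. The last of these lies 1.03 kb from the start site of the ligand gene Fgf1.

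Spred1 (chr2:117121374-117182279, plus strand), which blocks Ras activation, had the strongest CTCF and RAD21 pairs of the 9 genes and 2 weak H3K27ac pairs. Its last exon bin, chr2:117180001-117181000, met chr2:116900001-116901000, 280 kb upstream, with 70 CTCF contacts and 56 RAD21 contacts. In the same list 3 further pairs joined that exon bin to bins just beyond the far anchor, 281 to 284 kb away, with 9 to 24 contacts. The motif at 1 of these, shown above, faces the exon motif. The bin just before the start site reached the same far anchor with 19 CTCF contacts and 15 RAD21 contacts over 220 kb. Of the 6 RAD21 pairs, 5 were CTCF pairs in the same bins (83.3%). Over the 9 genes 17 of 29 RAD21 pairs were (58.6%, against 72.2% of all RAD21 pairs), with 37.5% at Fgf4 and 57.1% at Fgfr1. The 17 were 36.2% of the 47 CTCF pairs, against 34.4% of all CTCF pairs.

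Both Spred1 H3K27ac pairs joined the start site bin to places inside that domain, 178 and 146 kb upstream, with 8 contacts each. Neither was listed after IAA, and no pair of the start site bin was. The smallest count listed after IAA was 7 among pairs of 174 to 182 kb and 8 among pairs of 142 to 150 kb.

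**Figure D4:**
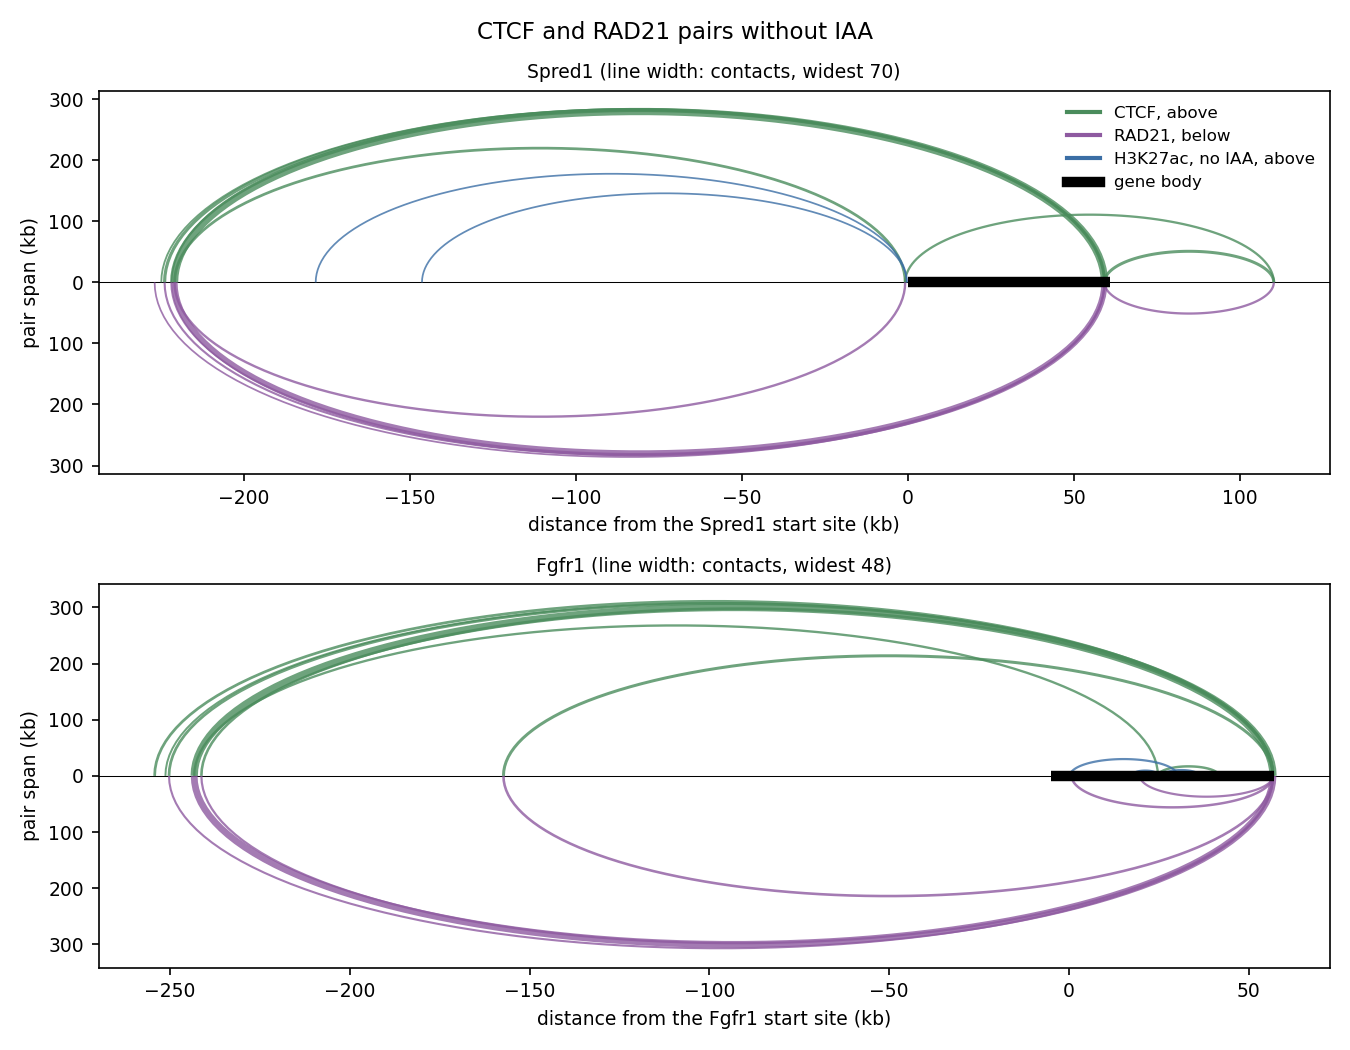
CTCF pairs (above the line) and RAD21 pairs (below) without IAA at Spred1 and Fgfr1, with untreated H3K27ac pairs in blue, by distance from the first start site (horizontal, kb) and span (vertical, kb), with line width by contacts. At both genes the widest arcs end near the gene's 3′ end, with up to 70 contacts at Spred1 and 48 at Fgfr1.

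Dusp6 (chr10:99263231-99267489, plus strand), the ERK phosphatase gene, had 1 H3K27ac pair without IAA, from its start site bin to a bin 36 kb downstream in the noncoding or pseudogene locus B530045E10Rik, with 8 contacts. It was not listed after IAA. No CTCF or RAD21 pair met the window.

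Etv4 (chr11:101769742-101785371, minus strand) encodes an ETS-family transcription factor of the PEA3 group. It had 5 untreated pairs and 4 after IAA, with 2 in common. The strongest joined the start site bin to chr11:101772001-101774000 near the 3′ end of the gene, 12 kb away, with 38 contacts without IAA and 23 after it. The second shared pair, from that same 3′ bin to the bin just upstream of the start site, held 25 and 14 contacts. Summed, 63 contacts became 37, a log2 ratio of -0.74 (-1.37 to -0.13), and neither pair passed the adjusted test (unadjusted exact binomial p = 0.0731 and p = 0.109).

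The H3K27ac coverage of the Etv4 start site bin was lower after IAA as well, 5649 without IAA and 4350 after it, while that of the 3′ bin was 2108 and 2023. With contacts divided by the coverage product the Etv4 log2 ratio was -0.03, and with model scaling -0.99. Whether fewer acetylated fragments or fewer contacts lie behind the 63 and 37 cannot be told apart here. That 3′ bin was an end of 3 of the 4 CTCF pairs and of both RAD21 pairs of Etv4. The 12 kb H3K27ac pair shares its 2 kb bin pair with a CTCF pair of 12 contacts and a RAD21 pair of 10. The most contacted Etv4 CTCF pair reached the start site of Dhx8, an RNA helicase gene, 40 kb away with 24 contacts.

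Etv5 (chr16:22381309-22439719, minus strand), the sister gene of Etv4, had the most pairs of the 9 genes. Its 77 untreated pairs held 1620 contacts and its 50 pairs after IAA held 1109. Both bins lay inside the window in 66 untreated pairs and 40 IAA pairs. Of these, 50 untreated pairs with 1254 contacts joined bins of the gene body to each other without a start site bin, against 16 pairs with 263 contacts that used one. In each list these pairs used 18 bins of the window.

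The Etv5 pairs found in both lists were compared next; a pair must pass the calling in each list to be among them, so their counts do not stand for the cluster. The strongest pair, chr16:22402001-22404000 with chr16:22412001-22414000 over 10 kb, held 75 contacts without IAA and 71 after it. The pairs of the latter bin with chr16:22406001-22408000 and chr16:22404001-22406000 held 71 and 59 without IAA and 65 and 39 after it. Over all 35 shared Etv5 pairs 960 contacts became 921, a log2 ratio of -0.03 (-0.16 to 0.10). Of these 20 were lower and 15 higher. The hub bin chr16:22412001-22414000 had 15 pairs without IAA and 14 after it, 11 of them the same, with 391 and 377 contacts in those (log2 ratio -0.02, -0.23 to 0.18). A second hub, chr16:22428001-22430000, which holds the Etv5 intron motif shown above, had 16 pairs without IAA and 8 after it, all 8 in both lists, with 170 and 176 contacts (log2 ratio 0.08, -0.23 to 0.39).

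Fewer pairs within the cluster were listed after IAA. Pairs inside the window without a start site bin were 50 with 1254 contacts without IAA and 29 with 844 contacts after it, 26 of them in both lists. The whole list went from 36274 to 28210 pairs. The 26 are 52.0% of the untreated pairs, above the 42.9% of all untreated pairs called again, a comparison that takes no account of contacts. By contacts, Etv5 pairs were called again less often than all pairs at 25 or more (72.7% against 82.9%) and 15 to 24 (35.0% against 55.3%). At 6 to 9 contacts it was 11.1% against 14.7%, and at 10 to 14 the order was the other way (42.3% against 30.9%). The most contacted Etv5 pairs that were not listed after IAA held 35, 32 and 31 contacts. The first joined chr16:22416001-22418000 to the second hub over 12 kb, and the weakest of 61 IAA pairs of like span and bin coverage held 14. That match took no account of peaks or predicted contacts. The bin chr16:22416001-22418000 was not marked as a peak, and the authors' model predicted 8.15 contacts for the pair. The count this pair had to reach after IAA may therefore be higher than 14.

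Start site pairs of Etv5 were 16 without IAA and 11 after it, with 8 in both. Among shared pairs the lowest log2 ratio for a start site pair was -0.61 (-1.62 to 0.35), 25 and 16 contacts over 28 kb with chr16:22410001-22412000. The highest ratio at Etv5, 0.54, was shared by 2 pairs of the second hub: 28 and 40 contacts with the first hub, 16 kb apart (-0.19 to 1.29), and 14 and 20 contacts with chr16:22402001-22404000, 26 kb apart (-0.51 to 1.64).

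Outside the window the partners of Etv5 differed between the lists on both sides. Upstream, inside the gene Dgkg (a diacylglycerol kinase), 5 pairs of 64 to 140 kb were listed without IAA with 49 contacts in all, and none after IAA. Of these, 3 ended in chr16:22548001-22550000, the bin that holds the Dgkg motif shown above. Downstream, at the 5′ end of the splicing factor gene Tra2b, 1 pair of 164 kb with 9 contacts was listed without IAA and 5 pairs of 134 to 148 kb with 8 to 12 contacts after it. None of these 11 pairs was in both lists, all held 13 contacts or fewer, and coverage of the main Tra2b bin was 6343 and 6582. Of all untreated pairs spanning over 50 kb, 16.0% of those with 6 to 9 contacts and 36.2% of those with 10 to 14 were called again. The difference between the sides was not tested.

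Still farther, 5 pairs without IAA and 5 after it joined the Etv5 cluster to bins around chr16:23098001-23100000, 684 to 700 kb away and 6.44 to 10.4 kb from the start site of Eif4a2, a translation factor gene. They held 45 and 44 contacts in all. One of them, from the hub bin chr16:22412001-22414000, was in both lists with 9 and 12 contacts, and it was the 1 member pair over 50 kb found in both.

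**Figure D5:**
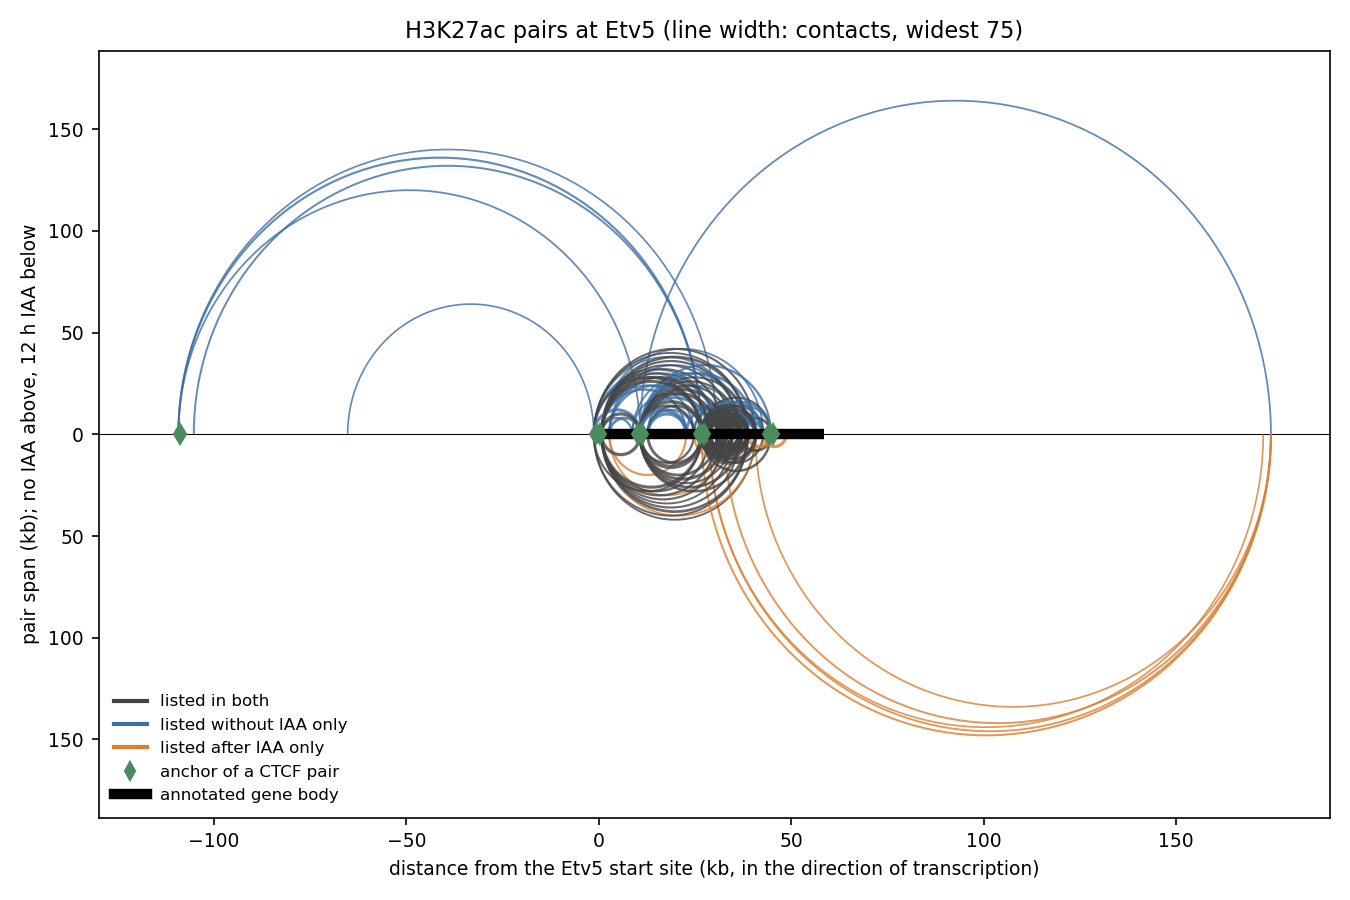
H3K27ac pairs at Etv5 by distance from the upstream start site (horizontal, kb, in the direction of transcription) and span (vertical, kb), without IAA above the line and after 12 h of IAA below it, with line width by contacts; 72 of 77 and 45 of 50 pairs fall in the drawn range. The 5 arcs to the left reach Dgkg and are drawn above only, whereas on the right 1 arc above and 5 below reach Tra2b.

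All 8 CTCF pairs and all 3 RAD21 pairs of Etv5 ended in 1 bin, chr16:22548001-22549000 in Dgkg. The most contacted CTCF pair, from the intron bin with the motif shown above, held 29 contacts over 119 kb and 12 in RAD21, with motifs facing each other. The start site bin met the same anchor over 109 kb with 12 CTCF and 17 RAD21 contacts, the highest RAD21 count of the gene. Of the untreated H3K27ac pairs at Etv5, 2 shared their 2 kb bin pair with a CTCF pair.

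Egr1 (chr18:34859823-34864984, plus strand), an immediate early gene of the ERK route, had 2 untreated H3K27ac pairs, both from its start site bin. One reached the start site bin of Hspa9, the mitochondrial HSP70 gene, 94 kb downstream, with 22 contacts where the authors' model predicted 1.60. The other reached an exon bin of the translation release factor gene Etf1, 70 kb away, with 9 contacts. After IAA no pair of the Egr1 start site bin was listed, although the Hspa9 bin had 22 pairs without IAA and 25 after it, with coverage of 10603 and 11147. IAA pairs of 90 to 98 kb were listed from 7 contacts upward, with a median of 10. Coverage of the Egr1 bin after IAA is not given by a list that holds no pair of it.

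Egr1 had 7 CTCF pairs of 7 to 32 contacts and 3 RAD21 pairs of 8 to 13. The most contacted CTCF pairs were short: 32 contacts over 10 kb and 29 over 5 kb, both from chr18:34850001-34851000. In each list 2 pairs joined the gene to a bin at chr18:35540001-35541000, 679 to 681 kb away, with 7 to 9 contacts each. Neither H3K27ac pair of Egr1 fell on a CTCF or RAD21 pair.

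Across the 9 genes, the H3K27ac pairs were set beside the CTCF and RAD21 pairs. A CTCF pair anchor lay in 1 or both bins of 93 of the 150 untreated H3K27ac pairs (62.0%, against 48.8% of all pairs). Only 5 of the 150 fell on a CTCF pair (3.33%, interval 1.09% to 7.61%, all pairs 6.23%) and 4 on a RAD21 pair (2.67%, 0.731% to 6.69%, all pairs 5.68%). These were 2 pairs of Fgf4, 1 of Etv4 and 2 of Etv5 for CTCF, and 1 each of Fgf4, Fgfr1, Etv4 and Etv5 for RAD21. The median span of member pairs was 18 kb for H3K27ac without IAA, 19 kb after IAA, 119 kb for CTCF and 61 kb for RAD21, against 24 kb, 22 kb, 149 kb and 123 kb over the whole lists. Fgf4 set the order of the last 2: without it the member medians were 144 kb for CTCF and 214 kb for RAD21. The minimum span differs between the lists (6 kb for H3K27ac, 5 kb for CTCF and RAD21).

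Member pairs that left their window were split by what the partner bin held. Of 21 untreated pairs whose outside partner holds a CTCF pair anchor, 2 were called again, and of 35 whose partner holds none, 9 were. Among all untreated pairs of the list 42.9% were called again, a share that takes no account of contacts or span. After IAA, 8 and 30 such pairs were listed. Of the first 21 pairs 15 belonged to Fgf4 and 3 to Etv5. Over all 150 untreated member pairs, inside and outside the windows, the order was the other way: 39 of 93 with a CTCF anchor in either bin were called again (41.9%, all pairs 40.6%), and 17 of 57 without one (29.8%, all pairs 45.0%). The split by outside partner was made after the values were seen, and neither split was tested.

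Direction could be read for 9 CTCF pairs and 7 RAD21 pairs with motifs of 1 strand at each end. In these lists 8 and 6 had motifs facing each other, 0 had them facing away, and 1 in each list, at Spred1, had both in the same direction. Among all pairs readable in this way 66.7% of CTCF pairs and 78.6% of RAD21 pairs had motifs facing each other. The member pairs share anchors: the 4 Fgfr1 CTCF pairs share the last exon bin and the 2 Fgf4 pairs the bin chr7:144846001-144847000. Promoter windows of RefSeq (GRCm38.p6 table) matched 5 members with 6 windows of 250 bases before to 50 after the start, namely Fgf4, Spry2, Spred1, Dusp6 and Etv5. The exact word CCGGAAG, 1 form of the ETS motif bound by ETV4 and ETV5, was searched on both strands. It was in none of the 6, and 8.86% of 32851 windows held it. Other forms of the motif were not searched, so these windows may still hold ETS sites.

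The rest of the pathway gave a background for the 9 genes. Of 49 further FGF and ERK genes, 48 were matched (Spry3 was not). Of these, 34 had an untreated H3K27ac pair, 33 one after IAA, 35 a CTCF pair and 32 a RAD21 pair. Over all protein-coding genes the shares with such pairs were 41.9%, 38.3%, 53.9% and 41.9%. Their 390 untreated pairs and 292 IAA pairs shared 167 (42.8% of the untreated, against 42.9% of all untreated pairs). Of the 167, 0 passed the adjusted test and 82 were lower, against 0.135% and 46.2% of all shared pairs. Of these further genes Fgfr2 had the most, 61 untreated and 41 IAA pairs with 85 CTCF and 61 RAD21 pairs. Among the other feedback inhibitors, 3 of 7 matched genes had untreated pairs, led by Spred2 with 35 and 25 after IAA. Map2k1 and Map2k2, which encode the MEK kinases that PD0325901 inhibits, had 31 and 18 untreated pairs, and 21 and 10 after IAA.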

How the data were processed

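The authors deposited 1 list of interactions for each of 4 antibody and treatment groups, pooled over replicates, with a q-value under 0.05. Per the file headers each line holds the deposited contact counts of 2 bins, the coverage of each bin, the model's predicted contacts (a signal) and probability (a fraction), and p-values and q-values. The submitters' processing notes name Trim Galore, BWA, MACS2, deepTools and mm10. The names of the deposited interaction lists carry the label FitHiC. Members and lists were chosen with earlier results of these data known. Windows came from GENCODE M21 genes widened by 5 kb, and sequences from the mm10 genome in RefSeq; no bin ran past a chromosome end. Pairs were matched by identical bins. Contacts were compared by an exact two-sided binomial test over all 15551 shared pairs, scaled by their totals, with Benjamini-Hochberg adjustment; the test was checked on simulated counts of these pairs, where it called few of the pairs changed 2-fold and most of those changed 4-fold. Shares carry exact Clopper-Pearson 95% intervals, which cover counting error only. Named pairs were, for each gene, the most contacted pair of each list and the shared pairs with the largest ratios; others were named after their values were seen. Alternatives varied windows, thresholds, matching and scaling. Sequence on chromosome 18 and the values of some single pathway genes are not reported here. Python 3.11.15, pandas 2.3.3, scipy 1.17.1 and matplotlib 3.10.9 were used.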

Additional observations from a re-analysis of the deposited data

How the results depend on the processing

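No paired analysis was possible because each list is pooled over its replicates and carries no replicate value, and the alternatives that leave out a replicate were not run. Of 83 values under an alternative, 65 stayed within 1.5 times the reported count or inside its interval. With only bins that hold an annotated start site, 32 untreated and 20 IAA H3K27ac pairs, 9 CTCF pairs and 3 RAD21 pairs remained in the count, with a median untreated span of 30 kb. At a q of 0.01 or less 18 RAD21 pairs were counted. When each anchor could differ by 1 bin, 76.7% of untreated pairs were found after IAA and 87.2% of IAA pairs untreated (65.7% and 75.9% of all pairs). Many member pairs missing from the other list thus had a listed pair 1 bin away. With the same freedom 7.33% of untreated member pairs fell on a RAD21 pair. That share was not counted over all pairs, so it cannot be set against the whole list. The log2 ratio of shared contacts was -0.35 with model scaling and 0.03 over the coverage product; alternatives that kept the reported scaling say nothing on that choice. The choices that follow were added after the data were seen. Without Etv5, 28.8% of untreated pairs were called again (18.8% to 40.6%) and 47.7% of IAA pairs were in the untreated list (32.5% to 63.3%). The log2 ratio was then -0.22 (-0.40 to -0.04) at the reported scaling. Without Etv5 and Fgf4 these were 29.4%, 45.5% and -0.52, over 5 shared pairs, with a median span of 34.0 kb. With the untreated list cut to the length of the IAA list, 43.3% of untreated member pairs were called again, against 49.8% of all pairs. Of the members' IAA pairs, 58.5% were in the cut list. Both member shares stayed inside the reported intervals. At this depth no pair under 6 contacts was listed in either H3K27ac list, and 4 of the 5 untreated pairs of Spred1, Dusp6 and Egr1 held 8 or 9 contacts.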

Other observations

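Apart from the 9 genes, several other genes of the pathway carried H3K27ac pairs. Ier2, an immediate early gene, had 29 pairs without IAA and 23 after it, with 15 in both and a log2 ratio of -0.08 (-0.27 to 0.10). Erf, which encodes an ETS repressor that ERK controls, had 40 and 28, with 21 in both and a log2 ratio of -0.26 (-0.46 to -0.07). Fgfr2 had 19 in both and a log2 ratio of -0.25 (-0.43 to -0.07). Nf1, which encodes a Ras-inactivating protein, had 4 untreated pairs and 0 after IAA beside 13 CTCF pairs. No pair of these genes passed the adjusted binomial test, and the intervals cover counting error of 2 pooled libraries only.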
